A study of Mus musculus with 24 samples.

Results

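The 9 genes described here are neuropeptide signalling genes with known roles in reward and feeding, taken as a list by name and not by their values. They comprise 3 neuropeptide precursors (Cartpt, Nts and Cck) and 6 receptors (Ntsr1, Ntsr2, Mc4r, Oxtr, Avpr1a and Npy1r). All 9 listed genes had a row among the 52636 gene rows of the count files, and all 9 passed the filter on low counts in each comparison. RNA-seq had been performed on total, ribosomal RNA-depleted RNA from punches of the nucleus accumbens (NAc) of both hemispheres in C57BL/6 mice (C57BL/6J in the study's methods) at 50 days of age, before any cocaine exposure. Control (Con) litters were left undisturbed, whereas litters of the early-life stress group underwent daily maternal separation combined with unpredictable stress of the dam (MSUS) in early postnatal life. There were 6 libraries, 1 per animal, for each of 4 groups, the Con and MSUS animals of each sex, and the female groups were balanced by design for the phase of the estrous cycle. The comparisons asked whether MSUS altered expression within each sex, whether the sexes differed within each group, and whether the MSUS effect differed between the sexes. The labels name no genetic alteration in any group, and the litter of each animal was not given in the sources used here.

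Neuropeptides are cut from larger precursor proteins, stored in dense-core vesicles and released during sustained neuronal activity, and they act mainly through G protein-coupled receptors. In the NAc, a hub of the mesolimbic dopamine system, CART peptides and neurotensin modulate dopamine signalling, while melanocortin, oxytocin, vasopressin and neuropeptide Y receptors link feeding and social cues to motivated behavior. Cholecystokinin is made by many cortical neurons and by midbrain dopamine neurons that project to the striatum.

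Sequence upstream of the start site is shown for Cck, Ntsr1 and Avpr1a, since Cck and Ntsr1 varied together across libraries and Avpr1a varied in the opposite direction and was higher in MSUS females. Each run holds the 250 bases before the RefSeq start on GRCm38.p6, written 5′ to 3′ on the strand of the gene, and none of the 3 windows overlapped an exon of the GENCODE annotation. They lie at chr9:121495695-121495944 on the minus strand for Cck, chr2:180499726-180499975 on the plus strand for Ntsr1 and chr10:122448249-122448498 on the plus strand for Avpr1a. Capitals mark TGACG or its reverse complement CGTCA, the core of the cyclic AMP response element, and TATAAA, searched as the letters of a core promoter box.
Cck promoter: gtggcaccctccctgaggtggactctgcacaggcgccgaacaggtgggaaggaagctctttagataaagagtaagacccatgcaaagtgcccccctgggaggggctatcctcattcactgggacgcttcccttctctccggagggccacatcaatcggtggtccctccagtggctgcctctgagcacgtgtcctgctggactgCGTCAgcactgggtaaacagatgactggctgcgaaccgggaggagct
Ntsr1 promoter: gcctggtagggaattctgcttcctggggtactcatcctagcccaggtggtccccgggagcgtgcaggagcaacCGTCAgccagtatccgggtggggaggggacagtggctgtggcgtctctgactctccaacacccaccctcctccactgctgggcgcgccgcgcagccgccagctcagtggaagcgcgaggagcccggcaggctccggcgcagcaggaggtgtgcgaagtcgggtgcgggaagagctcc
Avpr1a promoter: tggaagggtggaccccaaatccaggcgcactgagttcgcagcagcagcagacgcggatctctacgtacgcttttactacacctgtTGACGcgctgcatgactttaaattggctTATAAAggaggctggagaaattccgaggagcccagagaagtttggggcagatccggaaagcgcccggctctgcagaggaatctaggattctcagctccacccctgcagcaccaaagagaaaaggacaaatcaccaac
RefSeq promoters were matched for 8 of the 9 genes, and 5 of the 8 (Cck, Ntsr1, Avpr1a, Nts and Cartpt) held TGACG on either strand, against 17.8% of all 32851 promoters of the same length. Cartpt held the full palindrome TGACGTCA, which includes that core on both strands, 112 to 105 bases before its RefSeq start, against 1.55% of all promoters. TATAAA was found in 1 of the 8 promoters, that of Avpr1a, against 12.4% of all. TGANTCA, the AP-1 site, was found in those of Nts and Npy1r, 2 of 8, against 6.75% of all. The windows of Cartpt, Nts, Npy1r, Ntsr2 and Oxtr overlapped an exon of their own gene in the GENCODE annotation. That of Cartpt lay within the GENCODE span of the gene, so its matches are not upstream of the GENCODE start. The window of Npy1r lay mostly downstream of its GENCODE start. Its TGANTCA match, 231 to 225 bases before the RefSeq start, spanned that GENCODE start. These matches describe letters in the windows and were not tested as binding sites.

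Each library held between 39923666 and 70575745 reads assigned to genes on the sense strand. The share of reads assigned to no gene was 31.0% to 34.8% in Con and 36.3% to 43.9% in MSUS females. Among males it was 34.7% to 40.6% in Con and 32.2% to 44.7% in MSUS animals. Markers of striatal projection neurons were abundant in all 24 libraries, with 10 of 10 genes detected and a summed level of 100698 to 265175 normalized counts (counts divided by each library's size factor). Markers of cortical excitatory neurons were also detected, 8 of 8 genes with none at 0 in any library, at summed levels of 13762 to 87184 in Con and 6820 to 39402 in MSUS females. Their summed levels in males were 8646 to 61016 in Con and 9252 to 88028 in MSUS animals. The mean of log2 CPM (counts scaled to library size) over this cortical list is called the cortical marker score below. In MSUS females 1 of the 8 cortical markers was called lower in the test described below, with a median log2 fold change of -1.82 over the list. None of the 10 striatal projection neuron markers was called, while 2 of 5 interneuron, 2 of 6 astrocyte and 3 of 5 oligodendrocyte markers were called lower. Of all genes tested, 25.1% were called in either direction and 11.9% were called lower. The cortical marker score exceeded 5 in 7 libraries, namely Con females 1, 2 and 3, MSUS female 1, Con male 5 and MSUS males 2 and 6. In these bulk samples, fewer cells of a type and less RNA per cell cannot be told apart.

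Per kilobase of exon, the ligand genes and Ntsr2 were the most abundant of the 9. Median normalized counts per kilobase over the 24 libraries were 1457 for Cartpt, 1154 for Ntsr2, 1046 for Nts and 644 for Cck. The remaining receptors followed at 285 for Npy1r, 65.5 for Oxtr, 48.7 for Ntsr1, 33.5 for Mc4r and 8.71 for Avpr1a. Neighbours in this order overlapped in range over the libraries, and how often the higher gene was above the next within a library differed. Npy1r lay above Oxtr in 24 of 24 libraries and Mc4r above Avpr1a in 23, whereas Nts lay above Cck in 14 and Cartpt above Ntsr2 in 18. Con female medians per kilobase placed Cck at 1419, second after Cartpt at 1551, while in MSUS females Cck was at 316, below Nts at 1076.

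**Figure D1:**
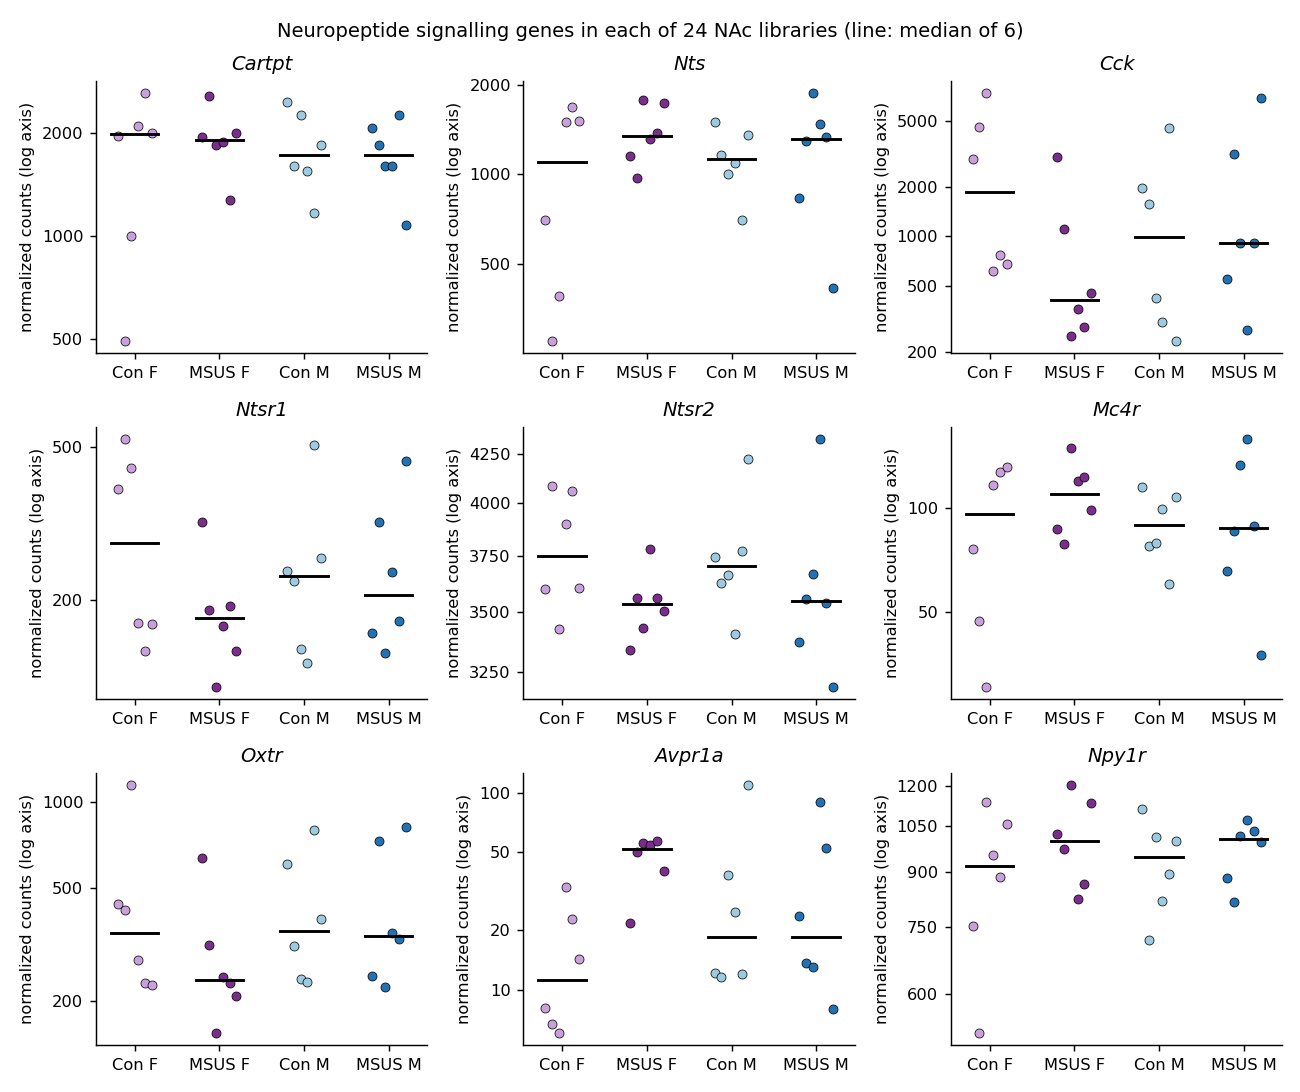
Normalized counts of the 9 genes in each library (log axes, scaled to each gene), with 6 points and the median line per group. Avpr1a in MSUS females had a median of 52.0 against 11.2 in Con females, and Cck spread over 31.3-fold among the 24 libraries.

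Of the 9 genes, 1 passed the threshold between MSUS and Con females, and it was a receptor: Avpr1a was higher in MSUS females. The background was 25.1% of the 20571 genes tested, so 1 of 9 (11.1%) lies below that share. The median log2 fold change of the 9 genes was 0.19, against -0.0027 over all genes tested, with 5 estimates above 0 and 4 below. Without regard to sign the medians were 0.47 for the 9 genes and 0.14 over all genes tested. The threshold throughout was a Benjamini-Hochberg adjusted p under 0.10 in edgeR's quasi-likelihood test across all genes. In males, 0 of 9 genes passed, with 0.0% of the 20691 genes tested called. At an unadjusted p under 0.05, 0 of the 9 and 191 of all genes passed in males in edgeR, and DESeq2 called 0 genes. DESeq2 called Avpr1a and none of the other 8 in females, against 5770 of 21925 genes.

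Cartpt (chr13:99898489-99901091, minus strand, protein coding) encodes the precursor of CART peptides, which are released by NAc projection neurons and are regulated by psychostimulants. Its normalized counts ranged from 492 through a median of 1981 to 2605 in Con females and from 1267 through 1910 to 2568 in MSUS females. Con males ranged from 1165 through 1719 to 2451 and MSUS males from 1075 through 1717 to 2260. The groups overlapped, and the lowest values belonged to Con female 2 (492) and Con female 3 (1000). The log2 fold change of MSUS over Con was 0.19 ± 0.33 (SE, n = 6 per group) in females, with an edgeR adjusted p of 0.731 and a 95% interval from -0.54 to 0.92. The male estimate was -0.061 ± 0.20, with a 95% interval from -0.49 to 0.37.

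Nts (chr10:102481756-102490486, minus strand, protein coding) encodes the precursor of neurotensin, a peptide that modulates dopamine release and lowers food intake. In Con females the normalized counts fell into separate parts of the range, at 274, 390 and 702 in Con females 2, 3 and 1 and between 1497 and 1684 in the other 3. MSUS females ranged from 968 through a median of 1343 to 1780, within the Con female range except at the top. Con males ranged from 700 through 1128 to 1494, and MSUS males from 414 through 1314 to 1870, with MSUS male 6 the lowest. MSUS over Con gave a log2 fold change of 0.47 ± 0.42 (SE) in females, with an edgeR adjusted p of 0.462 and a 95% interval from -0.45 to 1.38. The male estimate was 0.085 ± 0.30, with a 95% interval from -0.57 to 0.74.

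Cck (chr9:121489824-121495694, minus strand, protein coding) encodes the precursor of cholecystokinin, a satiety peptide of the gut that is also among the most abundant peptides of the cortex. It was the most variable of the 9 genes. Con females ranged from 620 through a median of 1852 to 7304 normalized counts, and MSUS females from 252 through 412 to 3025. Con males ranged from 234 through 998 to 4503 and MSUS males from 273 through 915 to 6874. Con females 1, 2 and 3, MSUS female 1, Con male 5 and MSUS males 2 and 6 held the 7 highest values, between 2938 and 7304 in normalized counts, and the groups overlapped. The estimated log2 fold change of Cck was -1.62 ± 0.83 (SE) in females, where 5 of 6 MSUS libraries lay below the Con median, and the edgeR adjusted p was 0.200 with a 95% interval from -3.44 to 0.21. Without MSUS female 1 the female estimate was -2.51 and passed the threshold, with an edgeR adjusted p of 0.052. In males the estimate was 0.50 ± 0.89, with a 95% interval from -1.45 to 2.44. The 7 libraries with the highest Cck were those with a cortical marker score above 5, and with that score as a covariate the female estimate was 0.29 ± 0.32, with an edgeR adjusted p of 0.666.

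Ntsr1 and Ntsr2 encode the high- and low-affinity G protein-coupled receptors of neurotensin, the former neuronal and the latter expressed largely by astrocytes. Ntsr1 (chr2:180499976-180544980, plus strand, protein coding) ranged from 148 through a median of 282 to 525 normalized counts in Con females and from 119 through 180 to 319 in MSUS females. In males it ranged from 138 through 231 to 506 in Con and from 146 through 207 to 461 in MSUS. Con females 1, 2 and 3 were at 390, 525 and 442 and the other 3 between 148 and 175, while MSUS female 1 was the highest of its group. For Ntsr1 the log2 fold change was -0.70 ± 0.36 (SE) in females, with an edgeR adjusted p of 0.193 and a 95% interval from -1.48 to 0.076. Without MSUS female 1 it was -0.91 with an edgeR adjusted p of 0.0966, and with the cortical marker score as a covariate it was 0.065 ± 0.30 with an edgeR adjusted p of 0.936. In males it was -0.0075 ± 0.354, with a 95% interval from -0.78 to 0.76.

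Ntsr2 (chr12:16653382-16660227, plus strand, protein coding) was the steadiest of the 9, with a 1.36-fold range over the 24 libraries. It ranged from 3426 through a median of 3750 to 4085 normalized counts in Con and from 3339 through 3531 to 3779 in MSUS females. Males ranged from 3406 through 3704 to 4223 in Con and from 3191 through 3546 to 4328 in MSUS animals. The medians of both MSUS groups lay below those of the matching Con groups, and the ranges overlapped. Its log2 fold change was -0.095 ± 0.048 (SE) in females, with an edgeR adjusted p of 0.180 and a 95% interval from -0.20 to 0.0071. Without Con female 3 it was -0.12 with an edgeR adjusted p of 0.0763, past the threshold. Among males it was -0.053 ± 0.070, with a 95% interval from -0.20 to 0.10.

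Mc4r encodes the melanocortin 4 receptor, which binds peptides cut from proopiomelanocortin, is antagonized by agouti-related protein and restrains feeding. Its single exon gave 30 to 163 counts per library. Normalized counts ranged from 30.3 through a median of 96.3 to 132 in Con females and from 78.8 through 110 to 150 in MSUS females. Con males ranged from 60.0 through 89.4 to 115 and MSUS males from 37.3 through 87.3 to 159. The lowest libraries were Con female 3, MSUS male 6 and Con female 2 at 30.3, 37.3 and 47.0, which were also the 3 lowest for Nts. The change of Mc4r on the log2 scale was 0.32 ± 0.32 (SE) in females, with an edgeR adjusted p of 0.512 and a 95% interval from -0.37 to 1.00. Among males it was 0.077 ± 0.29, with a 95% interval from -0.55 to 0.70.

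Oxtr (chr6:112473683-112489943, minus strand, protein coding) encodes the oxytocin receptor, which takes part in social reward in the NAc. It ranged from 228 through a median of 347 to 1146 normalized counts in Con females and from 155 through 237 to 636 in MSUS females. In males it ranged from 234 through 351 to 798 in Con and from 224 through 339 to 818 in MSUS. A single library was far above the rest in each female group, namely Con female 3 and MSUS female 1. For Oxtr the log2 fold change was -0.61 ± 0.46 (SE) in females, with an edgeR adjusted p of 0.384 and a 95% interval from -1.62 to 0.40. Without Con female 3 it was -0.089, and with the cortical marker score as a covariate it was 0.32 ± 0.36 with an edgeR adjusted p of 0.670. The male value was 0.068 ± 0.41, with a 95% interval from -0.82 to 0.96.

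Avpr1a (chr10:122448499-122453452, plus strand, protein coding) encodes the vasopressin 1a receptor, a widely expressed vasopressin receptor of the forebrain. It was the lowest of the 9 genes, with 6 to 111 counts per library, so counting error alone was sizeable. The gene overlaps the span of the antisense gene Gm48877 on the opposite strand but shares no exon bases with it, and reads were counted by strand. Con females ranged from 6.06 through a median of 11.2 to 33.1 normalized counts, with Con females 1, 2 and 3 at 8.12, 6.71 and 6.06. MSUS females ranged from 21.95 through 52.0 to 57.3, and 5 of the 6 lay above every Con female, MSUS female 1 being the exception. Con males ranged from 11.6 through 18.5 to 110 (109.8 in Con male 6) and MSUS males from 7.996 through 18.6 to 89.5 in MSUS male 4.

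Avpr1a rose in MSUS females by a log2 fold change of 1.61 ± 0.38 (SE, n = 6 per group), a 3.05-fold difference with a 95% interval from 0.79 to 2.43 on the log2 scale and an edgeR adjusted p of 0.0164. All 6 MSUS females lay above the Con female median. The estimate stayed past the threshold in all 12 fits that left out 1 female library, between 1.45 and 2.00, with edgeR adjusted p from 0.0082 to 0.0429. Avpr1a was lowest in libraries with a high cortical marker score, which was 3.58 to 6.15 in Con females and 1.396 to 5.23 in MSUS females. With the score as a covariate the estimate was 0.93 ± 0.30 with an edgeR adjusted p of 0.0942, and without the 3 Con females and 1 MSUS female whose score exceeded 5 it was 1.15 ± 0.25 with an edgeR adjusted p of 0.0153. With the share of reads assigned to no gene as a covariate it was 1.84 ± 0.75 with an edgeR adjusted p of 0.760, and with the share of spliced reads it was 1.89 ± 0.82 with an edgeR adjusted p of 0.905. In both of these edgeR fits 0 of all genes were called, with 1174 and 719 at an unadjusted p under 0.05, respectively. The share assigned to no gene did not overlap between the groups, at 31.0% to 34.8% in Con and 36.3% to 43.9% in MSUS females. In the fit with that share, it and MSUS can hardly be told apart. Within the first set of libraries, numbered 1 to 12 by the submitters, the female difference in mean log2 CPM was 1.78 (n = 3 per group). Within the second, numbered 13 to 24, it was 1.54. In males the log2 fold change was -0.077 ± 0.71, with a 95% interval from -1.61 to 1.46.

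Npy1r (chr8:66697192-66706792, plus strand, protein coding) encodes the Y1 receptor of neuropeptide Y, through which that peptide stimulates feeding and dampens anxiety. It ranged from 528 through a median of 919 to 1136 normalized counts in Con and from 823 through 998 to 1203 in MSUS females. Among males it ranged from 718 through 947 to 1111 in Con and from 815 through 1005 to 1072 in MSUS animals. Con female 2 was the lowest of all 24 libraries, and the groups overlapped. The Npy1r log2 fold change was 0.19 ± 0.16 (SE) in females, with an edgeR adjusted p of 0.450 and a 95% interval from -0.17 to 0.54. The male value was 0.065 ± 0.10, with a 95% interval from -0.15 to 0.28.

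**Figure D2:**
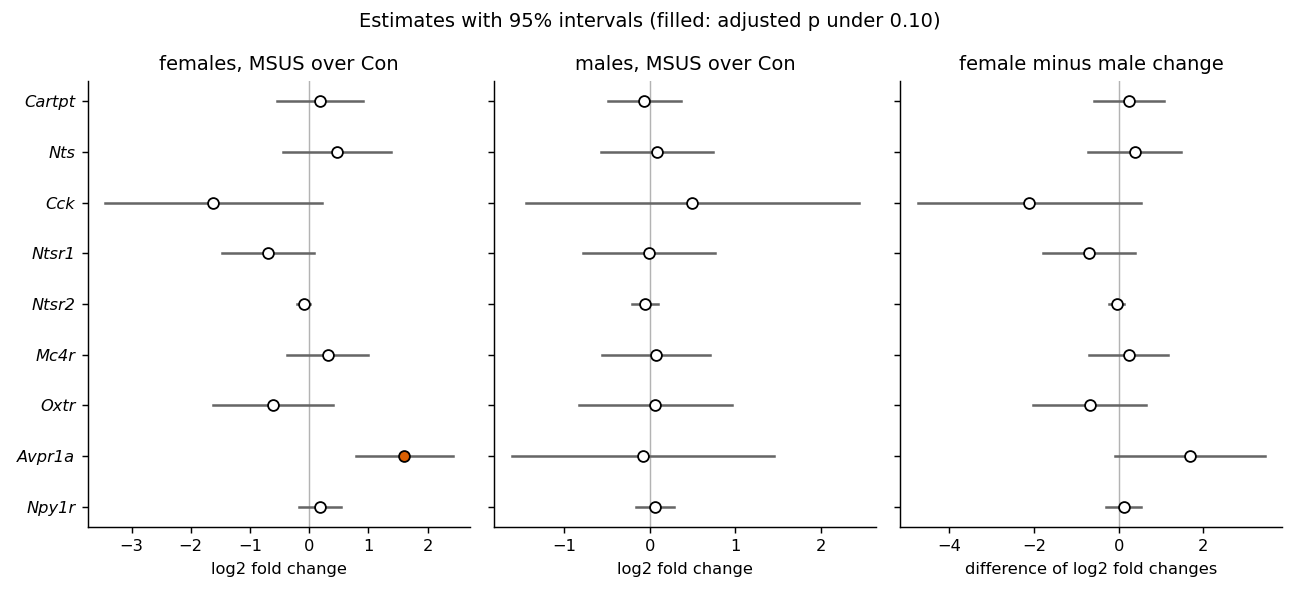
Estimates (points) with 95% intervals (lines) for the MSUS effect in females, in males, and for the female effect minus the male effect, all on the log2 scale with axes scaled to each panel. The filled point is Avpr1a in females at 1.61, and the widest female interval is that of Cck, from -3.44 to 0.21.

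The MSUS effect was not shown to differ between the sexes for any of the 9 genes: 0 of 9 passed the threshold for the group-by-sex interaction, with 0.0% of the 21500 genes tested called. At an unadjusted p under 0.05, 0 of the 9 genes and 4031 of all genes passed in edgeR, while DESeq2 called 390 genes and 0 of the 9. The interaction estimate for Avpr1a was 1.68 ± 0.86 (SE), with an edgeR adjusted p of 0.288 and a 95% interval from -0.098 to 3.46. That for Cck was -2.12 ± 1.27, with an edgeR adjusted p of 0.351 and a 95% interval from -4.75 to 0.52. The other 7 estimates lay between -0.70 and 0.37.

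Between the sexes, 0 of the 9 genes passed within Con animals, against 2.64% of the 20641 genes tested, and 0 of 9 passed within MSUS animals, against 0.135% of the 20714 tested. DESeq2 likewise called 0 of the 9 in either comparison, against 1485 of all genes in Con and 159 in MSUS animals. At an unadjusted p under 0.05 edgeR called 0 of the 9 in both, against 3670 of the 20641 genes tested in Con and 1511 of the 20714 in MSUS animals. Avpr1a was 2.25-fold lower in Con females than in Con males by its estimate, a log2 fold change of -1.17 ± 0.65 (SE), with an edgeR adjusted p of 0.366 and a 95% interval from -2.58 to 0.23. Leaving out 1 library at a time gave -1.58 to -0.36 for it, the latter without Con male 6. In MSUS animals the same estimate was 0.49 ± 0.51, with an edgeR adjusted p of 0.758, and it was 1.11 without MSUS male 4 and 0.28 without MSUS male 6. Cck was at 0.90 ± 0.84 for Con females over Con males and at -1.21 ± 0.88 for MSUS females over MSUS males, with edgeR adjusted p of 0.598 and 0.686. The first of these Cck estimates was 0.34 without Con female 3 and 1.62 without Con male 5, and the second was -2.09 without MSUS female 1 and -0.35 without MSUS male 6. Estimates for Ntsr2 and Npy1r, the least variable of the 9, were within 0.06 of 0 in both comparisons, with 95% intervals from -0.42 to 0.30 for Npy1r in Con animals and from -0.10 to 0.15 for Ntsr2.

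Differences between animals of the same group were large for several of the 9 genes. The SD of log2 CPM within groups was 1.59 for Cck, 0.77 for Oxtr, 0.73 for Nts, 0.65 for Ntsr1 and 0.56 for Cartpt, against a median of 0.12 over the 14313 genes with a mean of at least 100 counts. Only 18 of those genes had a higher SD than Cck, and Oxtr, Nts, Ntsr1 and Cartpt ranked at the 99.1, 99.0, 98.6 and 97.9 percentiles. Npy1r had an SD of 0.26, at the 85.7 percentile, and Ntsr2 one of 0.11, at the 44.3 percentile. Avpr1a and Mc4r, with SDs of 1.00 and 0.61, had means below 100 counts and were not ranked.

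The genes varied across libraries in a shared pattern, with Cck, Oxtr and Ntsr1 at one end and Nts, Mc4r and Avpr1a at the other. Over the 24 libraries, 45 relations were computed on log2 CPM, 36 between the genes and 9 with the cortical marker score. At a Benjamini-Hochberg adjusted permutation p under 0.05, 22 of the 36 and 6 of the 9 passed. All genes measured in a library share its depth scaling and its cell composition, and 6.43e-05 was the smallest adjusted p for r that the 100000 permutations gave.

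Nts and Mc4r had the strongest positive relation, with Pearson's r of 0.91 and Spearman's rho of 0.90 (adjusted permutation p of 6.43e-05 and 9e-05). Without the 2 libraries farthest from the median of Nts it was 0.91, and within the groups it was 0.93 and 0.73 in Con and MSUS females and 0.92 and 0.94 in Con and MSUS males. Ntsr1 and Oxtr followed with r of 0.87 and rho of 0.91 (adjusted permutation p of 6.43e-05 and 9e-05). Their r was 0.92 without the 2 farthest libraries and 0.77 to 0.97 within groups. Cck was related to Ntsr1 with r of 0.83 and rho of 0.69 (adjusted permutation p of 6.43e-05 and 0.00157) and to Oxtr with r of 0.83 and rho of 0.70 (adjusted permutation p of 0.000112 and 0.00139). Without the 2 farthest libraries these were 0.77 and 0.76. Avpr1a ran opposite to Cck, with r of -0.84 and rho of -0.88 (adjusted permutation p of 6.43e-05 and 9e-05), at -0.80 without the 2 farthest libraries and between -0.91 and -0.82 within groups. In the first and second sets of libraries, r was 0.97 and 0.88 for Nts and Mc4r, 0.91 and 0.84 for Ntsr1 and Oxtr, 0.90 and 0.77 for Cck and Ntsr1, 0.94 and 0.72 for Cck and Oxtr, and -0.85 and -0.84 for Cck and Avpr1a.

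Neurotensin and its receptors did not vary as a unit. Nts ran opposite to Ntsr1, with r of -0.78 and rho of -0.65 (adjusted permutation p of 0.00015 and 0.00235), at -0.68 without the 2 farthest libraries. Within groups r was -0.97 and -0.70 in Con and MSUS females and -0.46 and -0.67 in Con and MSUS males, and it was -0.76 and -0.81 in the first and second sets of libraries. Nts and Ntsr2 had r of 0.20 and rho of 0.24 (adjusted permutation p of 0.377 and 0.352), and 0.45 without the 2 farthest libraries. Cartpt and Nts had r of 0.75 but rho of 0.36 (adjusted permutation p of 0.000386 and 0.157). Their r fell to 0.45 without the 2 farthest libraries. Within groups it was 0.92 and -0.41 in Con and MSUS females and 0.75 and 0.60 in Con and MSUS males. In the first and second sets of libraries it was 0.55 and 0.87.

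**Figure D3:**
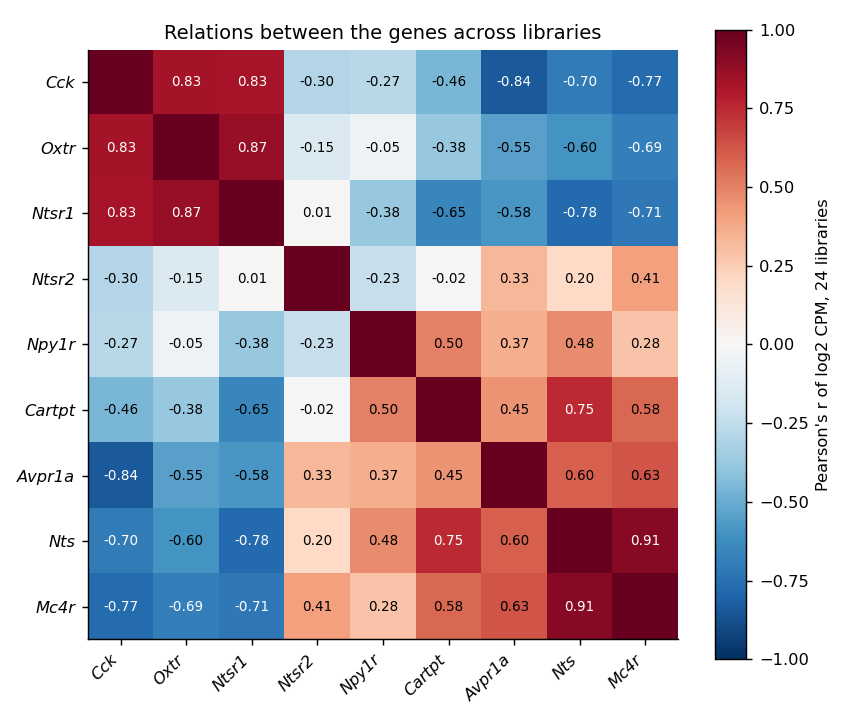
Pearson's r of log2 CPM between each pair of the 9 genes over the 24 libraries, from -1 (blue) to 1 (red). Cck, Oxtr and Ntsr1 form a positive block at 0.83 to 0.87, and Cck is negative with Avpr1a (-0.84), Mc4r (-0.77) and Nts (-0.70).

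The cortical marker score followed the same axis. Its r was 0.96 with Cck and rho was 0.98 (adjusted permutation p of 6.43e-05 and 9e-05), and r was 0.94 to 0.99 within the 4 groups. With Avpr1a r was -0.87 and rho -0.90 (adjusted permutation p of 6.43e-05 and 9e-05), and r was between -0.96 and -0.81 within groups. The remaining relations that passed were those with Mc4r (r of -0.76, rho of -0.73, adjusted permutation p of 6.43e-05 and 0.000675), Ntsr1 (0.75, 0.69, 0.000135 and 0.00139), Oxtr (0.74, 0.70, 0.00015 and 0.00139) and Nts (-0.69, -0.59, 0.00045 and 0.0076). Without the 2 libraries of most extreme score the 6 values of r lay between -0.87 and 0.97, each with its sign kept. For Cartpt, Ntsr2 and Npy1r r was -0.39, -0.27 and -0.28, with adjusted permutation p of 0.0868, 0.230 and 0.219. In the first and second sets of libraries r was 0.95 and 0.97 for Cck, -0.87 and -0.89 for Avpr1a, -0.66 and -0.89 for Mc4r, 0.78 and 0.72 for Ntsr1, 0.83 and 0.63 for Oxtr and -0.62 and -0.78 for Nts.

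**Figure D4:**
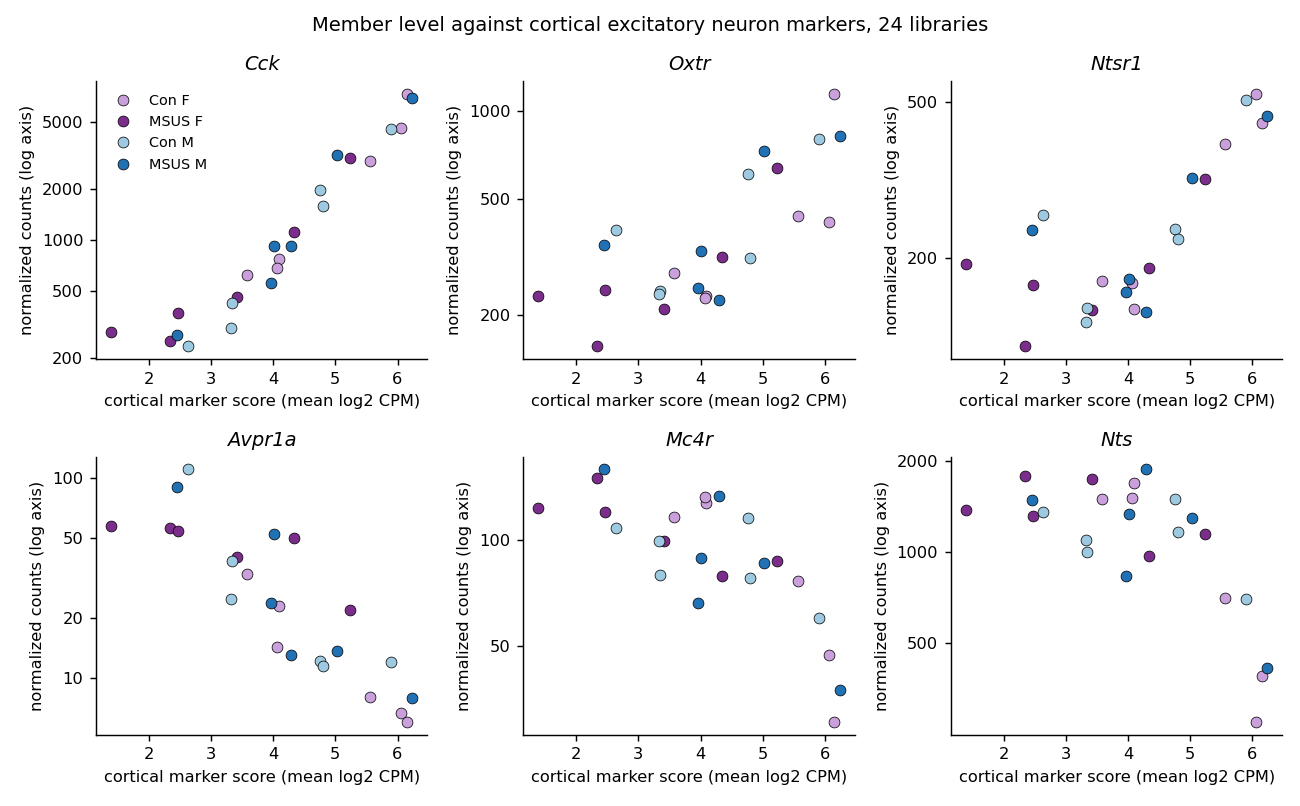
Normalized counts (log axes) of 6 genes against the cortical marker score, the mean log2 CPM of 8 cortical excitatory neuron genes, with 1 point per library. Cck, Oxtr and Ntsr1 climb and Avpr1a, Mc4r and Nts descend along the score, which spans 1.396 to 6.24.

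Putting the score, or either measure of read composition, into the female comparison altered the 9 estimates unequally. With the cortical marker score, estimates shrank and turned sign for Cck, Ntsr1, Oxtr, Nts and Mc4r, to 0.29, 0.065, 0.32, -0.054 and -0.25, with edgeR adjusted p above the threshold for each. Ntsr2 was at -0.13 and Npy1r at 0.15 in that fit. Without the 4 female libraries whose score exceeded 5, the estimates were -0.46 ± 0.52 (SE) for Cck, -0.0014 ± 0.15 for Ntsr1, -0.074 ± 0.18 for Oxtr, -0.11 ± 0.20 for Nts and -0.12 ± 0.18 for Mc4r, with edgeR adjusted p of 0.624, 0.997, 0.830, 0.765 and 0.692.

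**Figure D5:**
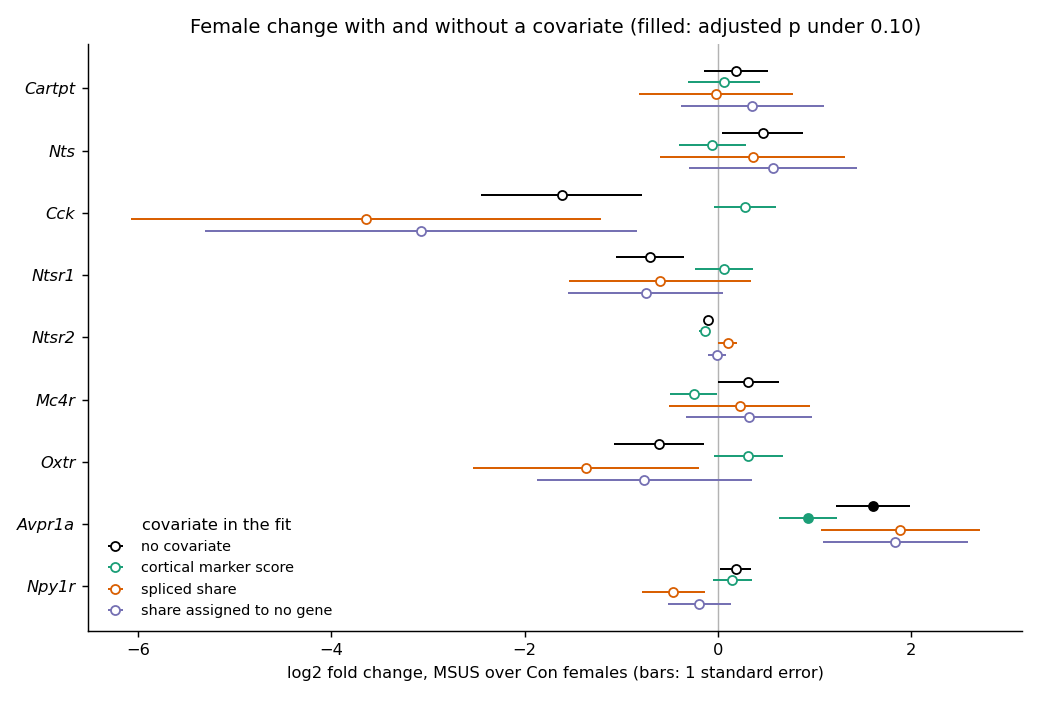
Female log2 fold changes of the 9 genes (MSUS over Con, bars of 1 standard error) with no covariate and with each of 3 covariates in the fit. Filled points passed the threshold, which Avpr1a did with no covariate (1.61) and with the cortical marker score (0.93).

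The genes with the most similar profiles over the 24 libraries, by Pearson's r of log2 CPM among genes with a mean of at least 100 counts, are given as a description. For Cck they were Ccn3, Vxn and Arhgap15, each with r of 0.98. For Ntsr1 they were Doc2a (0.97), Adgra1 (0.96) and Spon1 (0.96), and for Oxtr they were Ptprk (0.97), Adra2a (0.96) and Arhgef28 (0.96). Nts and Mc4r shared the same 3 genes, with r of 0.96 and 0.94 for Otof, 0.95 and 0.93 for Chn2 and 0.95 and 0.96 for Adra2b, which encodes an alpha-2 adrenergic receptor. Genes most like Avpr1a included Stk32b (0.95) and Agt (0.93), the latter encoding angiotensinogen. Cartpt was most like Lrrn3 (0.93), Ntn1 (0.92) and Il13ra1 (0.88). Ntsr2 was most like Mlc1 (0.85), Sfxn5 (0.85) and Plxnb1 (0.81), and Npy1r most like Pkib (0.87), Lhfpl3 (0.81) and Tmem178b (0.78).

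Other genes of neuropeptide signalling were examined as lists of ligands, receptors and processing enzymes. Of 18 other ligand genes, 11 were tested in females, 0 were higher and 1 was lower in MSUS females, against 25.1% of all genes called in either direction. The one that fell, Sst, the somatostatin precursor, was at 6627 ± 1499 (SD) normalized counts in Con and 5064 ± 512 in MSUS females, a log2 fold change of -0.39 ± 0.13 (SE, edgeR adjusted p of 0.0682). The peptides that act on Oxtr and Avpr1a were near the floor, with medians of 0 for Oxt and 0.966 for Avp in normalized counts and highest values of 15.5 and 32.5. Npy, the ligand of Npy1r, was at a median of 1550, and Pomc and Agrp, whose products act on Mc4r, were at 50.0 and 3.84.

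Of 32 other receptor genes, 26 were tested in females, 1 was higher and 4 were lower, against 25.1% of all genes called in either direction. Npy2r, the presynaptic Y2 receptor of neuropeptide Y, was higher at 656 ± 194 (SD) against 371 ± 141 normalized counts, a log2 fold change of 0.82 ± 0.27 (SE, edgeR adjusted p of 0.0571). Sort1, the sortilin receptor that also binds neurotensin, was lower, with a log2 fold change of -0.29 ± 0.066 (edgeR adjusted p of 0.0130). The cholecystokinin B receptor gene Cckbr was lower at -0.70 ± 0.27 (edgeR adjusted p of 0.0967), and the somatostatin receptor genes Sstr2 and Sstr1 at -0.84 ± 0.32 and -0.81 ± 0.31 (edgeR adjusted p of 0.0897 and 0.0940). The median log2 fold change over the 26 receptors was -0.0090, against -0.0027 over all genes.

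All 8 processing genes had an estimate below 0 in females, with a median of -0.15 against -0.0027 over all genes. Of the 8, 3 passed the test, each lower, against 25.1% of all genes called in either direction and 11.9% called lower. Pcsk1n, an inhibitor of prohormone convertase 1, was at 10608 ± 299 (SD) normalized counts in Con and 8842 ± 755 in MSUS females, a log2 fold change of -0.26 ± 0.051 (SE, edgeR adjusted p of 0.0079). Pcsk2, prohormone convertase 2, fell from 19389 ± 1328 to 16182 ± 910, a log2 fold change of -0.26 ± 0.053 (SE, edgeR adjusted p of 0.0089). Cpe, carboxypeptidase E, which trims the cut peptides, fell from 63897 ± 3865 to 55904 ± 2814, a log2 fold change of -0.19 ± 0.049 (SE, edgeR adjusted p of 0.0235). In males 0 genes of the 3 lists passed, and 0 passed for the interaction. Between the sexes 1 processing gene passed in Con animals, Pcsk1n, which was higher in females by 0.21 ± 0.041 (SE, edgeR adjusted p of 0.0584) and is named after its value was seen. The relation of these genes to the cortical marker score was not tested.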

How the data were processed

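RNA-seq libraries from the NAc of 24 mice (6 Con and 6 MSUS animals of each sex) were analysed. Per the labels and the study's methods, the authors aligned reads to mm10 with STAR 2.6.1b and counted reads per gene. The deposited files hold whole-number counts per gene for each library, unstranded and for each strand, and the column for reads on the reverse strand was used, as the study's kit marks strand. The summary lines that name no gene were left out of library sizes. Groups came from sample titles. Gene positions and exon lengths came from GENCODE release M21 on GRCm38, matched by identifier without version for 52489 of 52636 rows.

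Genes were filtered with filterByExpr (minimum count 10), scaled by TMM and tested with edgeR 4.0.16 in R 4.3.3 (glmQLFit with robust estimation and glmQLFTest) on the groups compared, or on all 24 libraries for the interaction, and Benjamini-Hochberg adjustment ran over all genes tested. Standard errors are the fold change over the root of F. Normalized counts are counts divided by DESeq2 size factors over all 24 libraries, and log2 CPM used a prior count of 2. Relations used two-sided permutation tests with 100000 permutations. Median per-library depth was between 51442555 and 55399723.5 counts in the groups, and p-values measure the spread between animals. Whole litters were assigned to Con or MSUS, and the litter of each animal was not given. Whether animals of a group were littermates is therefore not known, and if they were, the p-values would be too small.

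Alternatives were DESeq2 1.42.0, its size factors, no filter, a replicate block, library set, spliced share (per library from the study's supplementary tables, used only as a covariate), share assigned to no gene and cortical marker score as covariates, all 24 libraries in the fit, a threshold of 0.05 and leaving out each library in turn. Leaving out the libraries with a cortical marker score above 5 was chosen after seeing the data. The genes and lists were chosen with earlier results of these data known. The genes named are the 9 listed genes, the 3 genes most like each, and of the other lists those called in females, at most 6 of each by smallest p. One gene that this rule names is not reported here. Replicate numbers did not pair the libraries: deviations of same-numbered libraries correlated between -0.37 and 0.40. The stage of the estrous cycle was not used as a term, since the labels do not give it for every female. The sex-linked genes matched the labelled sex in all 24 libraries, and no pair of libraries agreed within sampling noise. The fit was tested on simulated counts.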

Additional observations from a re-analysis of the deposited data

Results flagged for a closer look

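Among the 36 sets of 6 libraries (9 genes in 4 groups), 6 held a library far from the other 5 of its group, by Dixon's criterion at the 95% level. The criterion was applied to normalized counts without a log scale, and all 6 values lay above the other 5 of their group. Its rate of about 1 in 20 sets by chance assumes normally distributed values, which was not checked here. The 6 sets are therefore not compared with that rate. The values are also not independent, since libraries recur. MSUS female 1 stood apart for 3 genes. Its Cck was at 3025 normalized counts against 252 to 1107 in the other 5 MSUS females, its Oxtr at 636 against 155 to 314, and its Ntsr1 at 319 against 119 to 193. Its cortical marker score of 5.23 was the highest of the MSUS females. Con female 3 stood apart for Oxtr, at 1146 against 228 to 437 in the other Con females, and its score of 6.15 was the highest of its group. Con male 5 stood apart for Ntsr1, at 506 against 138 to 258 in the other Con males, with the highest score of its group at 5.90. Con male 6 stood apart for Avpr1a, at 109.8 against 11.6 to 38.3 in the other Con males. Its cortical marker score of 2.64 was the lowest of its group, and its score for septal neuron markers, 3.83, was the highest of the 24 libraries. MSUS male 4, the next highest for Avpr1a at 89.5, had a septal score of 2.67, and the MSUS females had 2.46 to 2.97. The part of these marker levels in the values that stood apart was not tested.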

How the results depend on the processing

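Avpr1a kept its direction in females under every alternative run and lost its call under 2, the spliced share and the share assigned to no gene, where 0 of the 9 genes and 0 of all genes were called in females. The share assigned to no gene did not overlap between Con and MSUS females, so it and MSUS can hardly be told apart in that fit. With the cortical marker score 1932 genes were called in females, and at an adjusted p under 0.05 3126. Estimates that were not called often changed sign: of the values for single genes, 64 turned under the settings other than leaving out a library, against 339 that did not turn or cross the threshold. The cause was not tested. Low counts of Avpr1a and Mc4r limit their precision.

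Estimates that turned sign with the cortical marker score were, in females, Nts -0.054, Cck 0.29, Ntsr1 0.065, Mc4r -0.25 and Oxtr 0.32, in males Oxtr -0.027 and Avpr1a 0.18, for females against males in Con Cartpt 0.079, Cck -0.047, Ntsr1 -0.17, Mc4r 0.19 and Oxtr -0.42, in MSUS Nts -0.024, Cck 0.17 and Mc4r -0.11, and for the interaction Nts -0.072, Cck 0.27, Ntsr1 0.077, Mc4r -0.30 and Oxtr 0.26. With the spliced share they were, in females, Cartpt -0.018, Ntsr2 0.10 and Npy1r -0.46, in males Cartpt 0.023, Cck -0.033 and Oxtr -0.18, in Con between the sexes Cartpt 0.54, Nts 0.21, Cck -0.0018, Ntsr1 -0.59, Ntsr2 -0.097, Mc4r 0.39, Oxtr -0.13 and Npy1r 0.35, and for the interaction Cartpt -0.24, Ntsr1 0.25, Ntsr2 0.046, Oxtr 0.17 and Npy1r -0.11. With the share assigned to no gene they were, in females, Npy1r -0.19, in males Cartpt 0.014, Cck -0.031 and Oxtr -0.16, in Con between the sexes Cartpt 0.028, Nts 0.017, Ntsr1 -0.35, Ntsr2 -0.046, Mc4r 0.30, Oxtr -0.30 and Npy1r 0.17, in MSUS Cartpt -0.0003, and for the interaction Cartpt -0.16, Ntsr1 0.19, Ntsr2 0.017, Oxtr 0.27 and Npy1r -0.057. Without the libraries with a cortical marker score above 5 (females only) they were Cartpt -0.21, Nts -0.11 and Mc4r -0.12.

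With a replicate block, Ntsr1 in males was 0.023, Mc4r in males -0.0037, Avpr1a in males 0.061 and Oxtr between the sexes in Con -0.042, 12 genes were called between the sexes in Con, and no other call among the 9 genes changed. Libraries of the same number share their library set, odd numbers being in the first set and even numbers in the second. The labels name no animal, litter or batch that they share. Of the 6 numbers, 0 to 3 correlated best with themselves, depending on the comparison. With library set as a covariate Avpr1a in males was 0.0007 and 71 genes were called between the sexes in MSUS. Genes called between the sexes in Con numbered 10 with the spliced share, 11 with the share assigned to no gene, 45 with the cortical marker score, 32 at an adjusted p under 0.05, 1485 with DESeq2, 338 without the filter and 62 with all 24 libraries in the fit. DESeq2 called 159 genes between the sexes in MSUS and 390 for the interaction.

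Leaving out 1 library at a time, genes called ranged from 3102 to 5737 in females, 20 to 1395 between the sexes in Con, 14 to 64 in MSUS and 0 to 3031 for the interaction, and 1 to 3 of the 9 genes were called in females (3 without MSUS female 1: Avpr1a, Cck and Ntsr1). Estimates that changed sign in some of these fits ranged, in females, from -0.0055 to 0.34 for Cartpt, and in males from -0.16 to 0.046 for Cartpt, -0.084 to 0.26 for Nts, -0.36 to 1.24 for Cck, -0.27 to 0.32 for Ntsr1, -0.13 to 0.25 for Mc4r, -0.19 to 0.34 for Oxtr and -0.69 to 0.77 for Avpr1a. Between the sexes in Con they ranged from -0.25 to 0.082 for Cartpt, -0.37 to 0.015 for Nts, -0.020 to 0.040 for Ntsr2, -0.18 to 0.14 for Mc4r, -0.44 to 0.34 for Oxtr and -0.16 to 0.036 for Npy1r, and in MSUS from -0.068 to 0.030 for Ntsr2 and -0.012 to 0.10 for Npy1r.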
